A study of Rattus norvegicus with 98 samples.

Results

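Cytochromes P450 are heme enzymes that insert an oxygen atom into their substrates, and the 58 genes described here are those the rat array measured in the lining of the nose: 57 P450 genes and Por, the cytochrome P450 oxidoreductase. They were taken by symbol from the array's annotation, without Cyp51 forms, pseudogenes or probe sets that carry several symbols, and a gene with several probe sets is given by the one brightest on average over 98 arrays. They are 58 of 14217 genes with a probe set. Epithelial cells were released by protease from the middle level of the nose (Level II: lateral meatus and nasoturbinate, described as mainly transitional with some respiratory epithelium) of 98 male F344/NCrl rats aged 8 weeks, 1 array per animal, so the spread between arrays is a spread between animals and each value an average over all the cell types released. In array set 1 (82 animals), rats in whole-body chambers breathed air or formaldehyde at 0.7, 2 or 6 ppm for 6 h a day. Exposure on 5 days a week is listed for the animals of days 5, 8 and 19, and not for those of 6 h and 24 h. Each dose was sampled at 6 h, at 24 h, and on days 5, 8 and 19. Each of these groups held 4 animals, except for 5 at 2 ppm on day 5 and 5 in air on day 8, and the doses share the air animals of their time. Day 8 is given in the sample titles, while the design text of the labels does not list it. For some animals of day 8 a label field disagrees with the 0.7 ppm of the title, and the title was followed. In array set 2 (16 animals), all at 6 h, 4 animals breathed air and 4 breathed 15 ppm, while 4 had 40 ul of water and 4 had 40 ul of 400 mM formaldehyde instilled in each nostril.

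P450s of the endoplasmic reticulum take their electrons from NADPH through Por, with cytochrome b5 as a second donor for some reactions, and a heme group made in the mitochondria binds the oxygen. Enzymes of the Cyp1, Cyp2 and Cyp3 families mainly oxidise foreign chemicals, those of the Cyp4 family mainly fatty acids, and most others make or degrade steroids, bile acids, retinoic acid or vitamin D. The nose is known for P450s that are rare elsewhere, several of them in the olfactory lining and its glands, and they both clear inhaled chemicals and turn some of them into toxic products.

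Promoter sequences are shown for 6 genes on which the results below turn: Cyp2f4, Cyp2a3, Cyp4b1 and Por, which were lower after formaldehyde, and Cyp2g1 and Cyp1a2, which followed the olfactory markers from animal to animal. RefSeq gave a promoter for 46 of the 58 genes in the GRCr8 assembly, each 300 bases long from 250 before to 50 after the start. Cyp1a1, Cyp2a2, Cyp2c6v1, Cyp4a1, Cyp4f4, Cyp4f17, Cyp4v3, Cyp7a1, Cyp7b1, Cyp11b1, Cyp17a1 and Cyp19a1 had no entry. Capitals mark 3 motifs searched on both strands: GCGTG (or CACGC), the core of the element bound by the aryl hydrocarbon receptor, TATAAA (or TTTATA), the TATA box, and TTGGC (or GCCAA), the core bound by nuclear factor I. The Cyp2f4 promoter is chr1:91543518-91543817, plus strand, that of Cyp2a3 chr1:91299334-91299633, plus strand, and that of Cyp2g1 chr1:91273059-91273358, plus strand. That of Cyp4b1 is chr5:134393067-134393366, minus strand, that of Por chr12:26635760-26636059, minus strand, and that of Cyp1a2 chr8:66978100-66978399, minus strand.
Cyp2f4: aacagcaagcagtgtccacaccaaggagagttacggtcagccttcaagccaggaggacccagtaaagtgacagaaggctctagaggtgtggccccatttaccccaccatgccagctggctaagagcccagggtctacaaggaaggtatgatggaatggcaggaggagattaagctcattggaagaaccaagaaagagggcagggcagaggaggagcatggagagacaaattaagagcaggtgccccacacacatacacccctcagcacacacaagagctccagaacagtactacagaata
Cyp2a3: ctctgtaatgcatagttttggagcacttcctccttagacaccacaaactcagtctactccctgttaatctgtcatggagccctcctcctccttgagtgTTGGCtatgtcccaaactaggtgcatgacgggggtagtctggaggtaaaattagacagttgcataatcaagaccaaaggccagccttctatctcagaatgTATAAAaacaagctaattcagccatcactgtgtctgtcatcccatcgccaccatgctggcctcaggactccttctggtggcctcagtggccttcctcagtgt
Cyp4b1: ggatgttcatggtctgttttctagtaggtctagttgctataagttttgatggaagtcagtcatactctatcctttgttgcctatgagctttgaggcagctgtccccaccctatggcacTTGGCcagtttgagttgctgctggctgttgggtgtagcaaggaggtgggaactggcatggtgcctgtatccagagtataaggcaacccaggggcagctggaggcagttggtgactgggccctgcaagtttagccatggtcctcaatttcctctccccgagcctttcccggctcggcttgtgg
Por: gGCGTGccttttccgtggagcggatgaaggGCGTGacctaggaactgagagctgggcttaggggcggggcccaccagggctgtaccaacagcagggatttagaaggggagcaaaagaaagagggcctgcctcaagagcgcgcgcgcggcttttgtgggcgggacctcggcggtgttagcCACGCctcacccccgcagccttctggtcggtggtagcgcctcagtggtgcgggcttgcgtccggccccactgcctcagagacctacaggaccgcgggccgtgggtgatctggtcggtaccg
Cyp2g1: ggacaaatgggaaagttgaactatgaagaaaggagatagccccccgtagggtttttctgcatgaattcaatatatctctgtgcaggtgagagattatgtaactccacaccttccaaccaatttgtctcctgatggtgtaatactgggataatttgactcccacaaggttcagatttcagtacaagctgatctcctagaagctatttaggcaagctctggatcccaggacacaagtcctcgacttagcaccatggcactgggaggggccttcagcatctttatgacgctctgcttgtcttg
Cyp1a2: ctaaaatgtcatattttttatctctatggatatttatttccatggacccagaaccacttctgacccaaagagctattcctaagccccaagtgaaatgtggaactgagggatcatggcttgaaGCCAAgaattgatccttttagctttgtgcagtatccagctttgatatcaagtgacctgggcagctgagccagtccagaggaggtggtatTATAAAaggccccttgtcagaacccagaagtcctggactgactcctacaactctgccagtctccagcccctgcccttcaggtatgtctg

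The Por window held GCGTG 3 times, counting both strands, and is the richest in G and C of the 6, at 66.3% against 45.7% for Cyp2g1. TATAAA was found in Cyp1a2 and Cyp2a3, 1 match each, and TTGGC in Cyp1a2, Cyp2a3 and Cyp4b1, 1 match each. The windows of Cyp2f4 and Cyp2g1 held none of the 3. GCGTG was present in 12 of 46 promoters of the P450 group (26.1%) and in 29.7% of all 33469 promoters in the table, TATAAA in 13 (28.3%) and 14.2%, and TTGGC in 29 (63%) and 45.8%. A match describes the letters in this window and is not a binding site.

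The library facts that bear on these genes are few. Deposited values ran from 2.67 to 14.83 on the log2 scale, array medians from 5.94 to 6.07, and RNA integrity numbers, given for 85 arrays, from 7.2 to 8.8. The labels say that olfactory epithelium was discarded at dissection, yet 8 of 10 olfactory markers had a probe set and all 8 were high: the olfactory marker protein Omp had a mean of 11.96 over the 98 arrays, Gnal, the G protein of odorant receptors, 11.27, and the odorant-conjugating enzyme Ugt2a1 11.23. Most markers of the labelled respiratory and transitional lining were high too, up to Krt15 of basal cells at 13.45 and Bpifa1 of secretory cells at 14.57. Scgb1a1 of the secretory list (5.44) and Sprr1b of the basal and squamous list (5.35) were low, below the median of all probe sets. The 98 samples therefore hold olfactory RNA in amounts that differ between animals, and that list is given beside the results it moves with.

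In air, the nose carried a few P450 messages at very high level and many near the array's floor. Over the 25 air animals Cyp2f4, which oxidises naphthalene and other small inhaled aromatics, had a mean of 13.95 ± 0.09 (log2, SD, n = 25), and Cyp2a3, a nasal enzyme that activates nitrosamines and oxidises coumarin, 13.68 ± 0.11. Both lay at percentile 99.9 of all probe set means. Cyp2g1, a steroid hydroxylase of the olfactory lining, followed at 12.77 ± 0.46, Por at 11.52 ± 0.23 and Cyp4b1, which oxidises fatty acids and the lung toxin ipomeanol, at 11.05 ± 0.27. Levels of different probe sets also depend on their probes, so the percentile places a probe set on the array and does not rank transcript amounts.

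Of the next 5, Cyp3a9, a steroid hydroxylase, had a mean of 10.23 ± 0.40 (log2, SD, n = 25 air animals), Cyp2t1 10.03 ± 0.27, the orphan enzyme Cyp20a1 9.58 ± 0.11, Cyp2b21 9.49 ± 0.43 and Cyp2j4, an arachidonic acid epoxygenase, 9.46 ± 0.27. These 10 were the genes at or above the 90th percentile, and 6 of them belong to the Cyp2 family, which has 25 of the 58 genes. Cyp1a2, which oxidises aromatic amines, stood just below at 9.16 ± 0.58, and below it came, among others, Cyp2s1 at 7.73 ± 0.28, Cyp1b1 at 6.90 ± 0.62, Cyp1a1 at 6.56 ± 0.31 and Cyp2e1, which oxidises ethanol and small solvents, at 6.03 ± 0.87. By mean over the 98 arrays 25 of the 58 lay above the median of all probe sets, 6.05, and 33 lay below it. Under the 20th percentile were 20, among them 3 of the 4 genes of the Cyp3 family and 11 of the Cyp2 family, with Cyp2a1 lowest at 3.23 ± 0.11. Values so close to the floor leave little room for a fall to be seen.

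**Figure D1:**
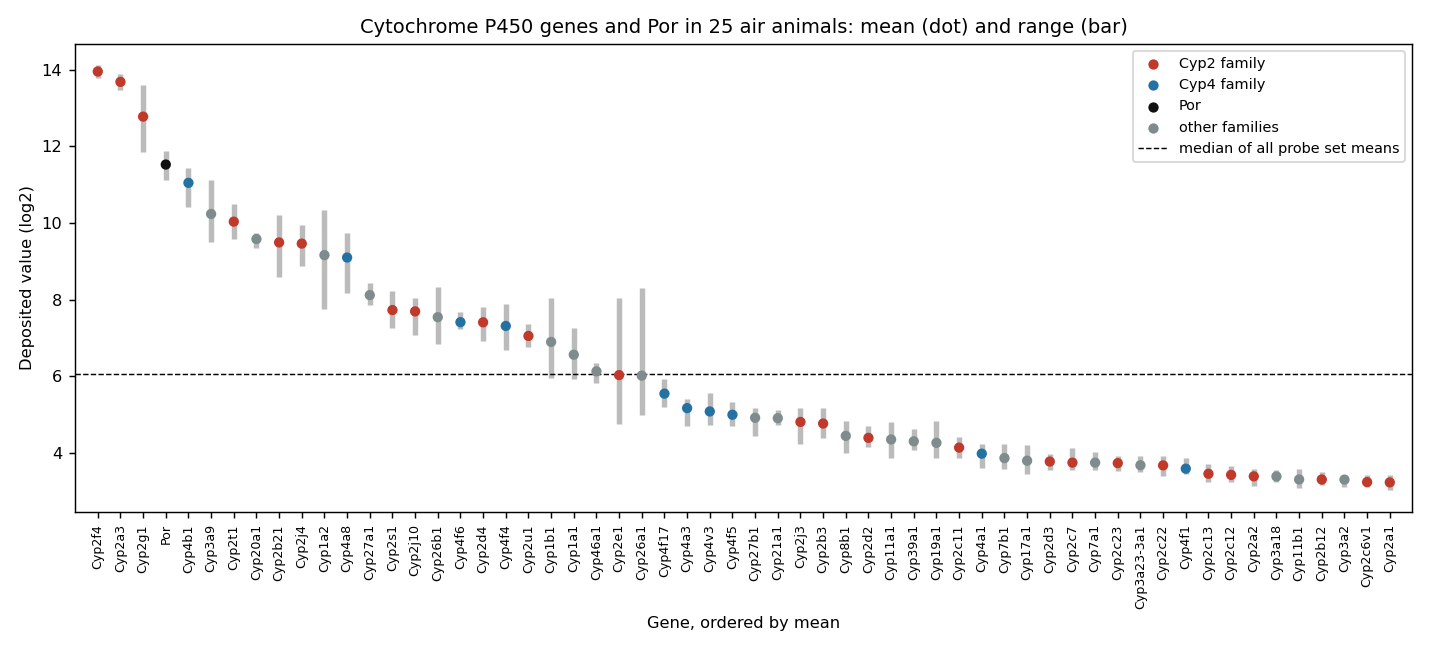
Deposited log2 value of 57 P450 genes and Por in 25 air animals, genes ordered by mean along the x axis; dots are means, grey bars the lowest and highest animal, colours the gene family and the dashed line the median of all probe set means, 6.05. Cyp2f4 and Cyp2a3 stand at 13.95 and 13.68 with short bars, while Cyp1a2, Cyp2e1 and Cyp26a1 have long ones.

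High and low genes lay side by side in the genome. In the RefSeq gene order of chromosome 1, 10 of the 58 genes lie in 1 stretch, other genes not counted, in the order Cyp2s1, Cyp2b3, Cyp2b21, Cyp2b12, Cyp2g1, Cyp2a3, Cyp2a1, Cyp2a2, Cyp2f4 and Cyp2t1. Cyp2g1 and Cyp2a3 (percentiles 99.5 and 99.9 in air) are followed by Cyp2a1 and Cyp2a2 (1.46 and 3.43), and these by Cyp2f4 (99.9). Cyp2b12, at percentile 2.29, stands between Cyp2b21 at 91.5 and Cyp2g1.

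The spread between animals of 1 group divided the high genes further. The within-group SD of the model was 0.10 for Cyp2f4, 0.11 for Cyp2a3 and 0.12 for Cyp20a1, below the median over all probe sets of 0.16. It was 0.88 for Cyp1a2, the highest of the 58, 0.71 for Cyp2g1, 0.64 for Cyp26a1, 0.59 for Cyp2e1 and 0.54 for Cyp2b21. The 6 genes whose group means ranged most over the 24 groups were Cyp1a2 (range 2.67), Cyp2e1 (2.38), Cyp2g1 (2.10), Cyp26a1 (1.88), Cyp1b1 (1.61) and Cyp2b21 (1.50), all log2. A difference that would stand out in Cyp2f4 is thus within the animal-to-animal spread of Cyp1a2 or Cyp2g1.

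A single exposure to 15 ppm for 6 h lowered Por and 2 of the high P450 messages. Por, the electron donor of the microsomal P450s, had values of 11.73, 11.86, 11.87 and 11.89 in the 4 air animals of the same array set and 10.99, 11.19, 11.20 and 11.37 at 15 ppm. Every exposed animal lay below every air animal. Por fell by 0.65 (log2; SE 0.11, 95% interval −0.88 to −0.43, n = 4 per group; limma adjusted p = 2.02e-05), a 1.57-fold decrease. The other Por probe set fell by 0.74 (adjusted p = 0.000796). In these samples of mixed cells, fewer cells of a type and less RNA per cell cannot be told apart.

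Cyp4b1 stood at 11.10, 11.26, 11.26 and 11.31 in air and at 9.98, 10.56, 10.63 and 10.83 at 15 ppm. The groups did not overlap, and animal 341 was the lowest by far. Cyp4b1 fell by 0.73 ± 0.24 (log2, SE, n = 4 per group; limma adjusted p = 0.0413), and by 0.56 without that animal. Cyp2a3 fell by less, 0.27 ± 0.08 (adjusted p = 0.02): its values were 13.76, 13.81, 13.85 and 13.90 in air and 13.47, 13.52, 13.58 and 13.68 at 15 ppm, again without overlap. Only 1 gene rose, Cyp2c6v1, by 0.24 ± 0.07 (adjusted p = 0.02), from 3.12 to 3.43 in air to 3.40 to 3.53, all near the floor of the array and overlapping.

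Thus 1 of 58 genes was higher and 3 were lower at 15 ppm, 6.9% in all, where 4.32% of all probe sets were called higher and 4.17% lower, so the count is not above the background. The median change over the 58 was −0.08 (log2), against 0.01 over all probe sets. Cyp2f4 differed by −0.20 ± 0.08 without passing the adjusted test (adjusted p = 0.085), although its 4 exposed animals, at 13.71 to 13.97, lay below the 4 air animals, at 14.02 to 14.11. Cyp1a1 differed by −0.20 (95% interval −0.65 to 0.25), Cyp2g1 by −0.40 (−1.38 to 0.59), Cyp1a2 by −0.39 (−1.59 to 0.82) and Cyp2j4 by −0.20 (−0.71 to 0.31), all within the spread between animals. The calls other than that of Por were fragile. With the air animals of array set 1 as controls Por still passed at −0.35 (adjusted p = 0.0272), while Cyp4b1 at −0.56, Cyp2a3 at −0.15 and Cyp2c6v1 at 0.19 did not (adjusted p = 0.102, 0.22 and 0.05). That comparison crosses the array sets, and in it 6 of the 58 genes were called, 3 higher and 3 lower. Genes other than the 4 above were thus called there. No share of all probe sets is given for that comparison, so its count cannot be set against a background. The array sets differed without formaldehyde too: between their air animals at 6 h, 1460 probe sets were called, 774 higher and 686 lower in array set 2. In a fit on the compared groups alone, Cyp2a3 and Cyp2c6v1 missed the threshold (limma adjusted p = 0.0542 and 0.125). When 1 animal was left out, the Cyp4b1 call was lost without exposed animal 337, 341 or 342 or air animal 321, 322, 323 or 325, the Cyp2a3 call without 338, 341, 321 or 323, and that of Cyp2c6v1 without 338, 342, 321 or 325; the number of genes called was then 1 to 3.

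**Figure D2:**
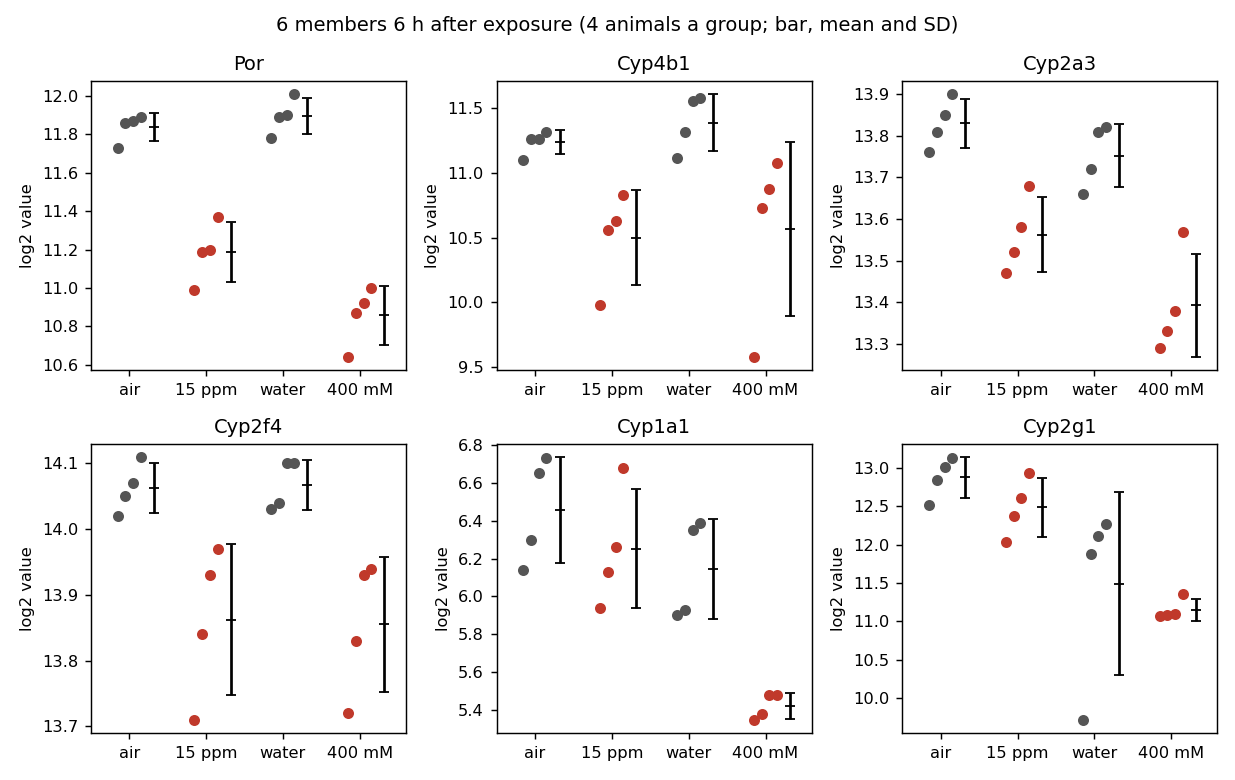
Deposited log2 values of Por, Cyp4b1, Cyp2a3, Cyp2f4, Cyp1a1 and Cyp2g1 at 6 h in array set 2, 1 panel per gene with its own y axis that does not start at 0; points are animals (4 per group), bars the mean and SD. Por runs from 10.99 to 11.37 at 15 ppm and from 10.64 to 11 after 400 mM, below every air and water animal, while Cyp2g1 overlaps between air and 15 ppm and has 1 water animal at 9.72.

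Instilled formaldehyde, set against instilled water, lowered the same electron donor too. Por had values of 11.78, 11.89, 11.90 and 12.01 after water and 10.64, 10.87, 10.92 and 11 after 400 mM. The groups lay far apart, and Por fell by 1.04 (log2; SE 0.11, 95% interval −1.27 to −0.82, n = 4 per group; limma adjusted p = 1.32e-11), a 2.06-fold decrease. The other Por probe set fell by 1.50, from 11.17 to 11.51 after water to 9.20 to 10.22.

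Cyp2a3 had values of 13.66, 13.72, 13.81 and 13.82 after water and 13.29, 13.33, 13.38 and 13.57 after formaldehyde, with no overlap, and fell by 0.36 ± 0.08 (log2, SE, n = 4 per group; limma adjusted p = 0.000273). Cyp4b1 fell by 0.82 ± 0.24 (adjusted p = 0.00768), from 11.11, 11.31, 11.55 and 11.57 to 9.58, 10.73, 10.87 and 11.07, where animal 372 was lowest. Cyp2f4 fell by 0.21 ± 0.08 (adjusted p = 0.0328), from 14.03, 14.04, 14.10 and 14.10 to 13.72, 13.83, 13.93 and 13.94. All 3 separated the groups, and the decreases in Cyp2a3 and Cyp2f4 were small beside their level, 1.28-fold and 1.16-fold.

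Cyp1a1, the classic target of the aryl hydrocarbon receptor, had values of 5.90, 5.93, 6.35 and 6.39 after water and 5.35, 5.38, 5.48 and 5.48 after formaldehyde. The treated animals lay close together and below every water animal. Cyp1a1 fell by 0.72 ± 0.23 (log2, SE, n = 4 per group; limma adjusted p = 0.0134). Cyp26b1, which degrades retinoic acid, fell by 0.73 ± 0.20 (adjusted p = 0.00469) with overlap, from 7.19 to 7.83 after water to 6.19 to 7.47. Its other probe set, dimmer, differed by 0.03, so the change of Cyp26b1 rests on 1 probe set.

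The 2 genes that rose were Cyp27b1, which activates vitamin D, by 0.31 ± 0.10 (log2, SE, n = 4 per group; limma adjusted p = 0.0191), and Cyp46a1, which clears cholesterol in the brain, by 0.22 ± 0.08 (adjusted p = 0.0418). Cyp27b1 had 4.68 to 4.94 after water and 5.07 to 5.19 after formaldehyde, no overlap but at a level below the median of the array. Cyp46a1 had 5.96 to 6.31 and 6.21 to 6.49, with overlap.

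In all 2 of 58 genes were higher and 6 lower after instillation, 13.8%, where 9.83% of all probe sets were called higher and 12.4% lower. The 58 were thus not called more often than all probe sets, many of which have no listed gene. Of the 8 genes called, 7 were among the 25 above the median level, and no share over bright probe sets alone is given. The median change was 0.03 (log2) over the 58 and 0.02 over all probe sets. With air animals of array set 2 as controls in place of water, 2 genes were called higher (14.4% of all probe sets were) and 10 lower (15.7% of all). Por (−0.98), Cyp1a1 (−1.03), Cyp2a3 (−0.44), Cyp2f4 (−0.21) and Cyp4b1 (−0.67) were still called lower, and Cyp26b1, Cyp27b1 and Cyp46a1 were not (−0.20, 0.04 and 0.18; adjusted p = 0.504, 0.791 and 0.0731). Called lower against air, and not called against water, were Cyp1a2 (−2.11), Cyp2g1 (−1.73), Cyp2b21 (−1.29), Cyp4f4 (−0.71) and Cyp27a1 (−0.47), and called higher were Cyp2j3 (0.47) and Cyp21a1 (0.29). In a fit on the compared groups alone Cyp4b1, Cyp26b1, Cyp2f4 and Cyp46a1 missed the threshold (limma adjusted p = 0.0994, 0.106, 0.135 and 0.219), Cyp27b1 did with cyclic loess (0.0517) and Cyp46a1 with a trended prior (0.0506). Leaving out 1 animal, Cyp1a1 lost its call without water animal 352 or 355 (−0.64 and −0.65), Cyp4b1 without instilled animal 372 (−0.50), Cyp26b1 without 372 (−0.54), Cyp27b1 without 374 or 355 (0.29 and 0.26), Cyp2f4 without 369, 372, 352 or 355 (−0.20, −0.17, −0.20 and −0.20) and Cyp46a1 without 369, 372, 374, 352 or 355 (0.15 to 0.21). Por and Cyp2a3 were called in all 8 of these fits.

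Markers of other cells moved in the same comparisons, for which the shares of all probe sets called stand above. All 5 neutrophil markers rose after instillation and 4 of 5 at 15 ppm, where Mmp8 was not called, and the mean of the 5 went from 6.01 to 6.51 (lowest and highest animal) in air to 7.56 to 7.79 at 15 ppm, and from 6.49 to 7.07 after water to 8.73 to 9.80 after formaldehyde. The mean of 8 olfactory markers was 9.94 to 10.83 in air, 9.37 to 11.08 at 15 ppm, 8.10 to 9.78 after water and 7.65 to 8.99 after formaldehyde; 1 of 8, Ermn, was called lower after instillation and 0 of 8 at 15 ppm. After instillation, 1 of 4 ciliated cell markers (Foxj1) fell, 1 of 5 macrophage markers (Cd68) rose and 1 of 6 stromal and vascular markers (Col1a1) fell. The part of these cells in the falls of Por, Cyp4b1, Cyp2a3, Cyp2f4 and Cyp1a1, or in the low Cyp1a2, Cyp2g1 and Cyp2b21 values against air, was not tested.

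Water alone, set against air in the same array set, changed 0 of 58 genes by the adjusted test (6 had an unadjusted p under 0.05 in limma; 0.0129% of all probe sets were called). The largest differences were in the genes with a wide spread: Cyp1a2 differed by −1.42 (log2; 95% interval −2.63 to −0.21; adjusted p = 0.402) and Cyp2g1 by −1.38 (−2.37 to −0.40; adjusted p = 0.33). Cyp2g1 had 12.52, 12.84, 13.01 and 13.13 in air and 9.72, 11.87, 12.11 and 12.27 after water; Cyp1a2 had 8.51, 8.91, 9.22 and 9.86 and 6.11, 8.12, 8.17 and 8.42. Every water animal lay below every air animal for both genes, and animal 354 was far below the others. After 400 mM, Cyp2g1 had 11.07, 11.08, 11.09 and 11.36 and Cyp1a2 6.65, 7.04, 7.09 and 7.28, values that overlap with water through animal 354. The median difference of the 8 olfactory markers between water and air was −1.30, none called, and its part in the low Cyp2g1 and Cyp1a2 values was not tested.

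The routes were compared through the difference of their effects, and 0 of 58 genes passed (2 had an unadjusted p under 0.05 in limma; 0.879% of all probe sets were called). The effect at 15 ppm minus that of instillation was 0.39 for Por (log2; 95% interval 0.07 to 0.71; adjusted p = 0.343), 0.52 for Cyp1a1 (−0.12 to 1.15), 0.09 for Cyp4b1 (−0.59 to 0.77), 0.09 for Cyp2a3 (−0.13 to 0.32) and 0.01 for Cyp2f4 (−0.20 to 0.22). The Por interval lies above 0 before adjustment over all probe sets, and those of the other 4 include 0.

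At 0.7, 2 and 6 ppm none of the 58 genes passed the test at any single time. Of the 58 genes, 0 were called in each of the 5 comparisons at 6 ppm (unadjusted p under 0.05 in limma: 6 genes at 6 h, 7 at 24 h, 3 at 5 days, 1 at 8 days and 5 at 19 days), where 0.162% of all probe sets were called over the 5 times. At 2 ppm 0 of 58 were called as well (1, 5, 1, 1 and 4 genes in the same order; 0.0155% of all), and at 0.7 ppm 0 of 58 (0, 2, 5, 3 and 2; 0.00129% of all). The smallest adjusted p was that of Cyp4f17 at 6 ppm and 19 days, 0.127, with a change of −0.40. With so few probe sets called, a count of 0 among 58 is near the background.

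**Figure D3:**
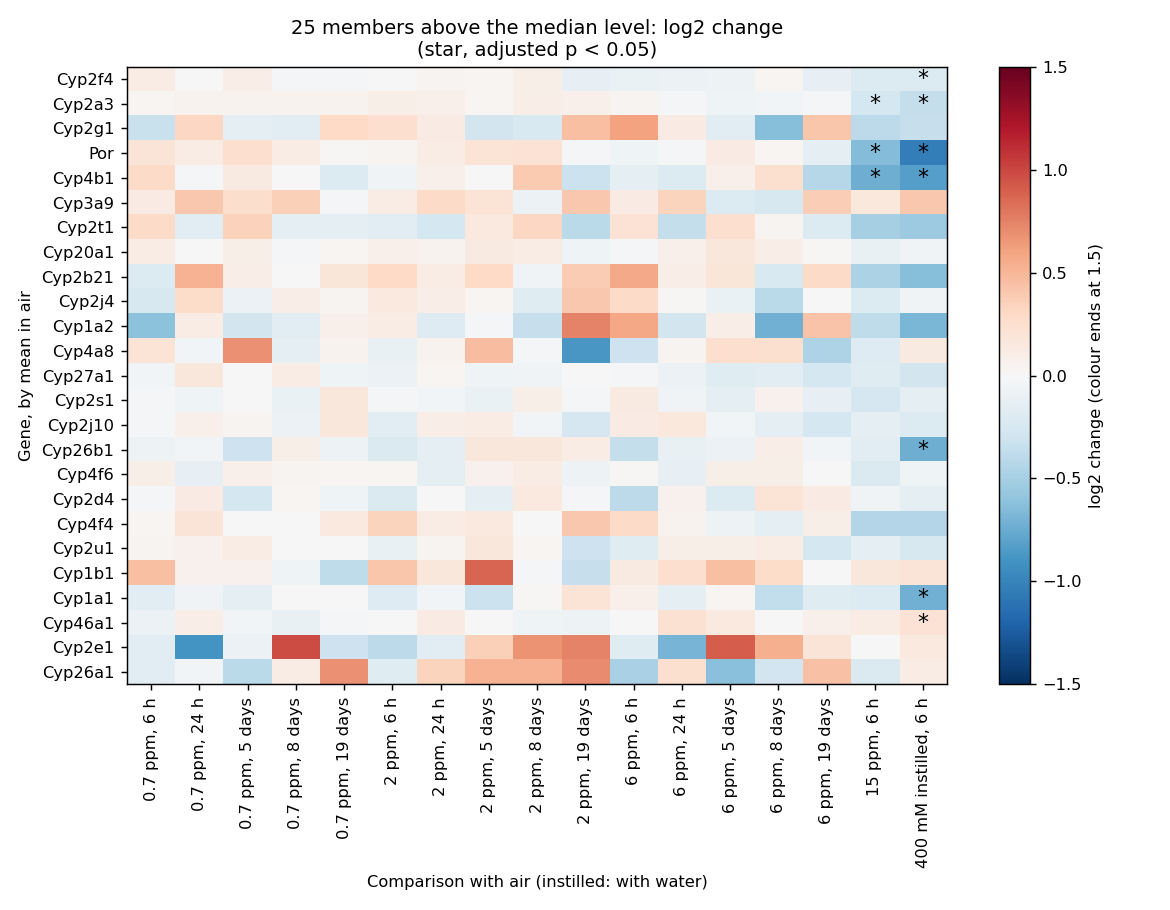
Log2 change of the 25 genes above the median level (rows, by mean in air) in 17 comparisons (columns) with air, or with water for instillation; blue is lower, red higher, and stars mark an adjusted p under 0.05. Stars appear in the last 2 columns, 15 ppm and 400 mM, where Por is −0.65 and −1.04, and in no column at 0.7, 2 or 6 ppm.

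Taking the mean of the 5 times narrowed the error. At 6 ppm Por differed from air by −0.02 (log2; 95% interval −0.12 to 0.08), Cyp2a3 by −0.02 (−0.09 to 0.05), Cyp2f4 by −0.07 (−0.14 to −0.01; limma adjusted p = 0.18), Cyp4b1 by −0.09 (−0.30 to 0.12) and Cyp1a1 by −0.12 (−0.32 to 0.08). For Por, that interval, and the one at 6 h alone (−0.06, −0.29 to 0.16), leave out a fall as large as the −0.65 of 15 ppm. Cyp1a2 at 0.02 (−0.51 to 0.56) and Cyp2g1 at 0.07 (−0.36 to 0.51) were measured less closely.

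In that mean 2 of 58 genes were called, both higher (3.45%, where 2.82% of all probe sets were called higher) and both near the floor: Cyp2a1 by 0.15 ± 0.03 (log2, SE; limma adjusted p = 0.00392) and Cyp3a18 by 0.11 ± 0.03 (adjusted p = 0.0226). Neither passed with the RNA integrity number as a covariate (limma adjusted p = 0.0619 and 0.105). Cyp3a18 also lost its call with cyclic loess (adjusted p = 0.0816) and without the 6 ppm animal 300 of 8 days (adjusted p = 0.0582). A brighter probe set that carries the symbols of both Cyp2a1 and Cyp2a2 (percentile 34.2 in air) differed by 0.09 at 6 ppm. It was not called (limma adjusted p = 0.282). At 2 ppm the mean over times gave 0 of 58 (5 with an unadjusted p under 0.05; 0.361% of all probe sets called), and at 0.7 ppm 0 of 58 (4 with an unadjusted p under 0.05; 0% of all probe sets called). The effect of 6 ppm did not differ detectably between the 5 times for any of the 58 (0 called, 1 with an unadjusted p under 0.05, smallest adjusted p = 0.8; 0.0129% of all probe sets called).

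The step from 6 to 15 ppm at 6 h was tested as a difference of differences, each dose against the air of its own array set. Por had 11.33, 11.48, 11.53 and 11.78 in the air of the first set and 11.38, 11.43, 11.47 and 11.59 at 6 ppm, groups that overlap. Its effect at 15 ppm was lower than that at 6 ppm by −0.59 ± 0.16 (log2, SE; limma adjusted p = 0.0411), and Por was the single gene of the 58 to pass, 1.72%, where 0.171% of all probe sets were called lower. The call was lost for the other Por probe set (−0.65, adjusted p = 0.17) and with the RNA integrity number as covariate (−0.66, adjusted p = 0.0656). It was also lost in 12 of 16 fits without 1 animal (−0.62 to −0.52 in those 12). The array sets also differed in air: Por in the second set differed from the first by 0.31 ± 0.11 (adjusted p = 0.108), and its other probe set was higher by 0.60 (adjusted p = 0.0154). Of the 58 genes, 1 was called between the air groups, Cyp26b1, lower by −0.95 in the second set (1.72%; 2.21% of all probe sets were called lower), but only in its brighter probe set (the other differed by −0.07).

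The other parts of the P450 system were described from lists named for their roles. Of 18 measured partners and regulators, 1 rose and 3 fell at 15 ppm, with a median of −0.06 (log2), and 3 rose and 4 fell after instillation, median −0.07. Of all probe sets, 4.32% were called higher and 4.17% lower at 15 ppm, and 9.83% and 12.4% after instillation. The b5 reductase Cyb5r3 fell by 0.50 ± 0.09 at 15 ppm (SE, n = 4 per group; limma adjusted p = 1.88e-05) and by 0.50 after instillation, and cytochrome b5 itself, Cyb5a, fell by 0.58 after instillation, with −0.24 at 15 ppm (adjusted p = 0.137). Cyb5b, a cytochrome b5 of the mitochondria, fell by 0.44 and Ppara, a receptor for fatty acids, by 0.30 at 15 ppm, and Fdx1, the electron carrier of mitochondrial P450s, by 0.44 after instillation. Tiparp, a target and inhibitor of the aryl hydrocarbon receptor, rose by 0.50 at 15 ppm and 0.86 after instillation, while the receptor Ahr (0.32 and −0.06) and its repressor Ahrr (−0.10 and −0.07) were not called. Ahrr and Ppara lie near the floor, with means of 3.79 and 4.13 over the 98 arrays (percentiles 11.4 and 19.5), where a fall shows little. Cebpa, a transcription factor of differentiated epithelium, rose by 1.02 after instillation.

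Heme synthesis, which supplies the prosthetic group, had 7 of 8 genes measured. After instillation 5 of 7 fell, median −0.37 (log2; 0.02 over all probe sets), and at 15 ppm 1 of 7, median −0.19 (0.01 over all). The shares of all probe sets called lower were 12.4% after instillation and 4.17% at 15 ppm. Alas1, the rate-limiting first enzyme, fell by 1.09 ± 0.18 after instillation (SE, n = 4 per group; limma adjusted p = 1.02e-06) and by 0.70 at 15 ppm (adjusted p = 0.00407), with no overlap between groups in either. Alad, the next enzyme, fell by 0.46, and Uros, Cpox and Urod by 0.37, 0.37 and 0.22, after instillation. Between the air animals of the 2 array sets Alas1 also differed, by 0.74 (adjusted p = 0.00517).

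Of 9 measured flavin monooxygenases, hydrolases and other oxidising enzymes, 2 fell at 15 ppm (median −0.33, log2) and 3 after instillation (median −0.47), and 0 rose. Beside these counts, 4.17% of all probe sets were called lower at 15 ppm and 12.4% after instillation. Ephx1, the microsomal epoxide hydrolase, fell by 0.36 at 15 ppm and 0.50 after instillation (limma adjusted p = 0.0088 and 3.88e-05), Fmo4 by 0.62 and 0.58, and Fmo2, a flavin monooxygenase of the airways, by 0.90 after instillation. At 6 ppm over the mean of 5 times Nqo1, a quinone reductase, rose by 0.31 ± 0.06 (adjusted p = 0.00112) and Pgrmc1, a heme protein that binds P450s, by 0.13 (adjusted p = 0.00118), the single genes called in their lists, while Uros of the heme list fell by 0.19 (adjusted p = 0.0267).

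Apart from formaldehyde, P450 messages differed between times of collection. In air alone 4 of 58 genes differed over the 5 times (6.9%, where 11.4% of all probe sets were called), so the 58 were not called more often than all probe sets. All 4 were among the 25 genes above the median level. Cyp2e1 had 6.66, 7.19, 7.72 and 8.05 at 24 h, 6.25 to 6.58 at 5 days, 5.27 to 6.73 at 6 h, 5.30 to 6.90 at 19 days and 4.81 to 5.55 at 8 days. Animals of 24 h were higher than nearly all others, and those of 8 days and 24 h did not overlap. The limma F-test gave an adjusted p of 0.00116.

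Cyp1b1, which oxidises hydrocarbons and estrogens, was highest at 19 days, with 7.55, 7.76, 7.96 and 8.05 in air, and lowest at 8 days, with 5.96, 5.97, 6.16, 6.61 and 6.72 (limma adjusted p = 0.000361). Cyp26b1 was highest at 24 h, 7.97 to 8.33, and lowest at 8 days, 6.95 to 7.34 (adjusted p = 0.000496). The other, dimmer Cyp26b1 probe set had the same highest and lowest times in air with a smaller range, 6.18 to 6.64 at 24 h and 5.78 to 6.08 at 8 days (adjusted p = 0.00313). None of these pairs of times overlapped. Por was lowest at 24 h, with 11.13, 11.15, 11.22 and 11.23, below every air animal of the other times (adjusted p = 0.0332). That call was lost in the other Por probe set (adjusted p = 0.678), with the RNA integrity number as covariate (0.11), and without air animal 54, 56, 57 or 58 of 24 h or 68 of 8 days (0.0566 to 0.109).

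**Figure D4:**
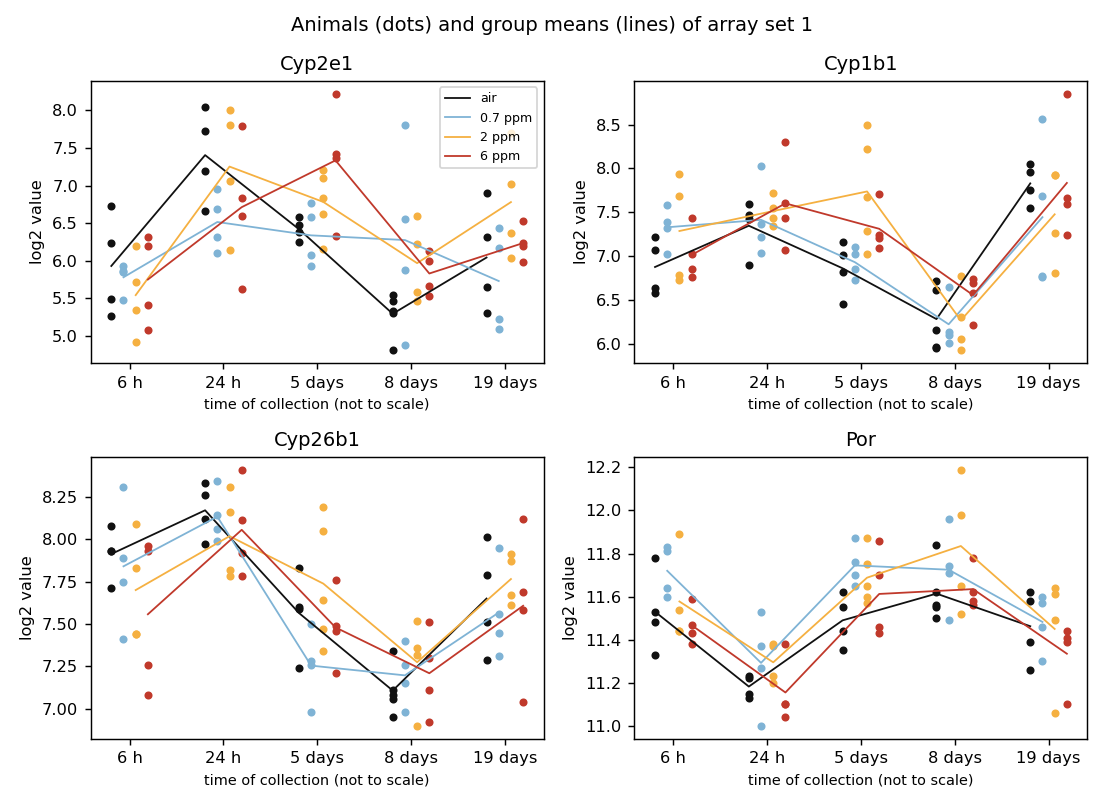
Deposited log2 values of Cyp2e1, Cyp1b1, Cyp26b1 and Por against time of collection in array set 1 (spacing of times not to scale, y axes do not start at 0); dots are animals, lines join the means of air, 0.7, 2 and 6 ppm, each of 4 or 5 animals. In air Cyp1b1 is highest at 19 days and lowest at 8 days, and Por is lowest at 24 h, 11.13 to 11.23.

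Averaged over the 4 doses, with 82 animals, 22 of 58 genes differed between times (37.9%, where 54.7% of all probe sets were called). The 12 with the largest range of means were Cyp1b1 (2.48-fold from lowest to highest time), Cyp2e1 (2.33-fold), the retinoic acid hydroxylases Cyp26a1 (1.91-fold) and Cyp26b1 (1.86-fold), Cyp3a9 (1.57-fold), Cyp4a8 (1.41-fold), Cyp2j10 (1.40-fold), Por (1.39-fold), Cyp1a1 (1.27-fold), Cyp27b1 (1.26-fold), Cyp2s1 (1.25-fold) and Cyp2u1 (1.20-fold), with limma adjusted p between 9.79e-12 for Cyp1b1 and 0.0164 for Cyp1a1. The retinoic acid pair did not share its times: Cyp26a1 was highest at 8 days (6.59) and lowest at 5 days (5.66), and Cyp26b1 highest at 24 h (8.09) and lowest at 8 days (7.20), as in its other probe set (6.34 and 6.00; adjusted p = 3.49e-08). With the RNA integrity number as covariate Cyp4a8 and Cyp2s1 missed the threshold (adjusted p = 0.0607 and 0.0845). Cyp2f4 (adjusted p = 0.178), Cyp2a3 (0.0608), Cyp4b1 (0.341), Cyp2g1 (0.848) and Cyp1a2 (0.773) were not called.

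Of the lists beside this comparison, all 13 measured clock genes and all 6 stromal and vascular markers differed between times over the 4 doses, and 11 and 5 of them in air alone. Of all probe sets, 54.7% were called over the 4 doses and 11.4% in air alone. The mean of the 6 stromal and vascular markers lay between 10.77 and 11.15 in the air animals of 24 h and between 9.66 and 10.43 in those of 8 days, and Cyp1b1 and Cyp26b1 were low at 8 days too. The hour of collection was not used here. The part of clock genes or stromal cells in the differences between times was not tested.

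Within groups, some P450 messages moved from animal to animal with the olfactory markers. Group means were removed from each gene and from the mean of each of 7 cell type lists, and 406 relations (58 genes by 7 lists) were computed over 98 animals, with animals permuted within groups and Benjamini-Hochberg adjustment over all 406. The smallest p that 100000 permutations can give is 1e-05. With the mean of the 8 olfactory markers, 8 genes were related positively and 13 negatively after adjustment. The relations were computed for the 58 genes only, so no share over all probe sets stands beside such counts. They cannot show whether P450 genes follow a list more often than other genes do.

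Cyp1a2 followed it most closely (Pearson r = 0.92, Spearman rho = 0.92, permutation p = 1e-05 for each, adjusted p = 0.000226; r = 0.92 without the 2 animals farthest from the median, 0.93 in array set 1 and 0.81 in array set 2). Cyp2g1 was as close (r = 0.92, rho = 0.91, permutation p = 1e-05 for each, adjusted p = 0.000226; r = 0.90 without the 2 farthest, 0.94 and 0.79 in the array sets), as was Cyp2j4 (r = 0.88, rho = 0.90, permutation p = 1e-05 for each, adjusted p = 0.000226; 0.88, 0.90 and 0.78). For these 3 r was high in both array sets. Cyp1a2 and Cyp2g1 are also the genes with the widest spread within groups of the 58.

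Cyp2b21 (r = 0.79, rho = 0.78), Cyp27a1, a mitochondrial sterol hydroxylase (r = 0.79, rho = 0.80), Cyp1a1 (r = 0.72, rho = 0.68) and Cyp4f4 (r = 0.68, rho = 0.71) followed, each with a permutation p of 1e-05 and an adjusted p of 0.000226. In array set 2 alone their r was 0.54, 0.62, 0.55 and 0.20, so that of Cyp4f4 was weak there. Without the 2 farthest animals r was 0.75, 0.76, 0.66 and 0.67. Cyp2a3 was related more loosely (r = 0.45, p = 0.00014, rho = 0.42, p = 0.00035, adjusted p = 0.00189 by permutation; r = 0.40 without the 2 farthest, 0.50 in array set 1). In the 16 animals of array set 2 r was 0.10. No test was run in that set alone, so whether the relation held there cannot be said.

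**Figure D5:**
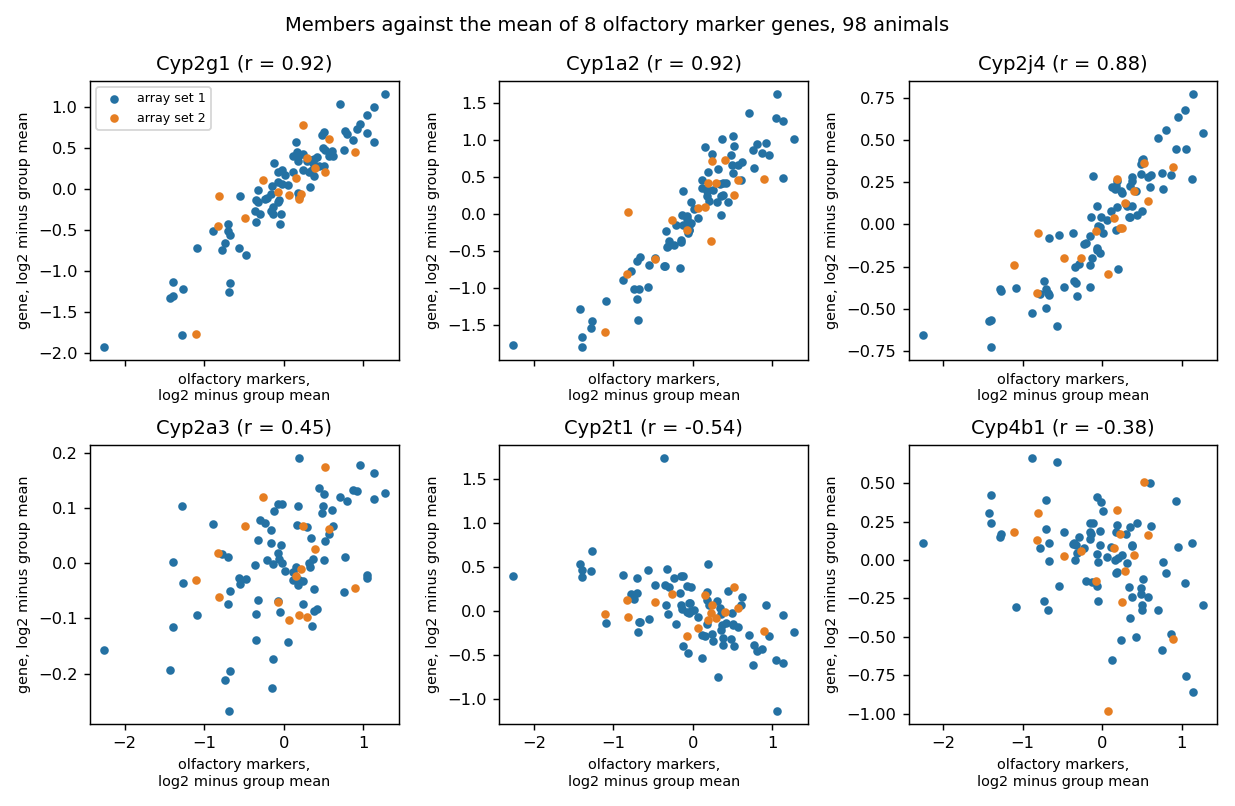
Log2 value of Cyp2g1, Cyp1a2, Cyp2j4, Cyp2a3, Cyp2t1 and Cyp4b1 (y axis) against the mean of 8 olfactory marker genes (x axis), both with the mean of the animal's group removed, for 98 animals coloured by array set. Points of Cyp2g1 and Cyp1a2 lie near a rising line (r = 0.92), those of Cyp2t1 and Cyp4b1 scatter around a falling one (r = −0.54 and −0.38).

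Others ran the opposite way. Cyp2t1, next to Cyp2f4 in that stretch, had r = −0.54 (rho = −0.58, permutation p = 1e-05 for each, adjusted p = 0.000226; −0.525 without the 2 farthest), and Cyp4b1 r = −0.38 (p = 0.0017, rho = −0.37, p = 0.00139, adjusted p = 0.0144 by permutation; −0.38 without the 2 farthest). Array set 1 gave −0.58 and −0.41, and the 16 animals of array set 2, not tested alone, −0.11 and −0.24. Between genes, as a description over the 98 animals with group means removed, the closest pairs of 136 were Cyp2g1 with Cyp1a2 (r = 0.93), Cyp2j4 with Cyp1a2 (0.90), Cyp2g1 with Cyp2b21 (0.86) and Cyp2f4 with Cyp4b1 (0.85). Cyp2f4 also went with Por (0.68) and Cyp2t1 (0.60).

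With the other lists, Cyp1b1 followed the stromal and vascular markers (r = 0.67, rho = 0.68, permutation p = 1e-05 for each, adjusted p = 0.000226; 0.675 without the 2 farthest, 0.67 and 0.72 in the array sets), as did Cyp2u1, a fatty acid hydroxylase (r = 0.65, rho = 0.57, the same p; 0.64, 0.68 and 0.22). Cyp2d4 followed the secretory markers (r = 0.64, rho = 0.61, permutation p = 1e-05 for each; 0.62 without the 2 farthest, 0.70 and −0.05 in the array sets) and Cyp2s1 the ciliated markers (r = 0.55, rho = 0.48, permutation p = 1e-05 and 5e-05; 0.50, 0.57 and 0.46). With the neutrophil list 1 gene of 58 was related, Cyp26a1 (r = 0.30, p = 0.00717, rho = 0.24, p = 0.0386, adjusted p = 0.0489 by permutation; 0.26 without the 2 farthest), with r = 0.39 in array set 1 and −0.51 in array set 2. Por was not related to the olfactory list (r = 0.09).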

How the data were processed

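RNA of 98 animals was hybridised to Affymetrix Rat230_2 arrays, 1 per animal. The deposited values are log2 expression per probe set, per the labels and the values themselves; the summary and normalization method was not stated, and the sorted values nearly coincide between arrays (largest SD 0.06). The number of arrays limits the precision. Control probe sets (57) were left out. A linear model with 24 group means was fitted to all 31042 probe sets with limma 3.58.1 (lmFit, contrasts.fit, eBayes) in R 4.3.3, with 74 residual degrees of freedom, and p was adjusted by Benjamini-Hochberg over all of them. "Called" means an adjusted p under 0.05; "rose" and "fell" are used of called changes. The 27 comparisons were each dose against the air of its time, the mean of 5 times, times, 15 ppm against air, 400 mM against water, water against air, array sets, and differences of effects. The fit was tested on simulated data. Gene symbols come from the platform annotation: 20826 probe sets have 1 symbol, 436 several and 9780 no listed gene. Promoters are those of RefSeq in GRCr8.

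Genes named with values are the 10 with the highest mean in air; Por, Cyp1a1, Cyp1a2, Cyp1b1, Cyp2a3, Cyp2e1, Cyp2f4, Cyp2g1, Cyp2j4, Cyp2s1 and Cyp4b1; in each comparison those called (above 12, the 12 with the largest change); the 6 with the largest range of group means; and up to 4 of smallest p in each other list. Fdx1, Urod, Ahr, Ahrr, Cyp4f17, the genes related to marker lists and the neighbours on chromosome 1 were chosen after their values were seen. The members and lists were chosen with earlier results of these data known. Alternatives were another variance model, cyclic loess between arrays, leaving out dim probe sets, the next probe set of a gene, the compared groups alone, the RNA integrity number as covariate, other controls, and leaving out each animal.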

Additional observations from a re-analysis of the deposited data

Results flagged for a closer look

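Within groups of 4 or 5 animals, 64 combinations of gene and group were examined for 1 animal far from the rest, and 4 stood out; chance marks about 1 in 20. After water, animal 354 had 9.72 for Cyp2g1 (group median 11.99, log2) and 6.11 for Cyp1a2 (group median 8.14), so both of these marks come from 1 animal. After 400 mM, animal 365 had 11.36 for Cyp2g1 (group median 11.09), where the other 3 had 11.07, 11.08 and 11.09. In the air group of array set 2, animal 322 had 11.73 for Por (group median 11.87), and the fall of Por at 15 ppm passed the test without it. The Por effect at 15 ppm differed from that at 6 ppm by −0.59 (log2, limma adjusted p = 0.0411).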

How the results depend on the processing

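Under the alternatives, 42 calls of named genes gave 220 values, of which 192 kept direction and call, 27 lost the call and 1 turned: Cyp26b1 after instillation was 0.0316 (log2) in its next probe set. The number of genes called after instillation was 5 instead of 8 with the arrays of the compared groups alone. At 6 ppm, mean of 5 times, it was 1 instead of 2 with cyclic loess, 0 with dim probe sets left out (both genes are dim) and 0 with the RNA integrity number as covariate. At 2 ppm, summed over times, the RNA integrity number gave 1 instead of 0. Between the air groups of the array sets, the compared groups alone gave 2 instead of 1. Between the 15 and 6 ppm effects, the next probe set gave 0 instead of 1. Apart from the dim probe sets, the cause was not tested. Leaving out 1 animal at a time gave 1 to 3 genes at 15 ppm (4 with all), 4 to 9 after instillation, 0 to 1 at 6 ppm summed over times, 1 to 4 in its mean and 0 to 1 for the 15 against 6 ppm effects; of 2090 values of named genes 136 lost their call. No paired analysis was possible because animal numbers are not shared between groups. With 4 animals per group, genes of wide spread such as Cyp1a2 and Cyp2g1 leave large changes undetected. Genes near the floor can leave falls undetected.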

Other observations

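A probe set that carries the symbols of both Cyp2b1 and Cyp2b2, xenobiotic enzymes known for their induction by phenobarbital in liver, was left out of the 58 genes because it cannot tell the pair apart. It was bright, at 12.72 ± 0.28 (log2, SD, n = 25 air animals; percentile 99.5). Its values were 12.93, 12.97, 13.14 and 13.34 in air and 12.08, 12.54, 12.57 and 12.82 at 15 ppm, without overlap, a fall of 0.59 ± 0.18 (SE; limma adjusted p = 0.0232). After water they were 13.08, 13.10, 13.16 and 13.19 and after 400 mM 11.42, 12.01, 12.17 and 12.20, again without overlap, a fall of 1.19 ± 0.18 (adjusted p = 2.35e-07). At 6 ppm over the mean of 5 times it differed by −0.04 (adjusted p = 0.826). Of the other 6 P450 probe sets with several symbols, that of Cyp2a1 and Cyp2a2 rose by 0.39 after instillation (adjusted p = 0.00642) with groups that overlap, and the other 5 were not called at 15 ppm or after instillation.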
